A study of Mus musculus with 8 samples.

Results

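Acetyl-CoA makers and the enzymes that write and erase acetylation at lysine 18 of histone H3 (H3K18ac) were examined at the RNA level in mouse preimplantation embryos treated with trimetazidine (TMZ). The 10 genes were chosen by function: Acly and Acss2 for the nuclear acetyl-CoA supply, Ep300, Crebbp and Kat2a for the acetyltransferases, and Hdac1, Hdac2, Hdac3, Sirt6 and Sirt7 for the deacetylases. All 10 were found among the 31899 entries of the 8-cell table and the 29202 entries of the morula table. The deposited tables carry no gene names. Each name was inferred by aligning gene lengths recovered from the values, in order, to the genes of an annotation, and the 10 names had posterior probabilities of at least 0.976.

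The series held 8 libraries in 4 groups of 2: 8-cell control, 8-cell TMZ, morula control and morula TMZ. Embryos of ICR mice were cultured in KSOM, and TMZ, which blocks the thiolase step of long-chain fatty acid oxidation, was added at 100 μM. The labels give the 2-cell stage as the start of treatment, and the methods text names both the zygote and the 2-cell stage. Embryos were collected 70 h (8-cell) and 78 h (morula) after hCG injection. The labels call control embryos WT and name no transgene or mutation, and no vehicle for the controls is given in the sources used here. Messenger RNA of whole embryos was amplified in full length, so fewer cells of a type and less RNA per cell cannot be told apart. Both TMZ columns of the 8-cell table have the same header, and these libraries are called A and B.

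Acetyl-CoA is the acetyl donor of histone acetylation. ATP-citrate lyase, the product of Acly, makes it from citrate that leaves mitochondria, and ACSS2 makes it from acetate. The paralogous acetyltransferases p300 (Ep300) and CBP (Crebbp) are the main writers of H3K18ac and of H3K27ac, and KAT2A (GCN5), the catalytic subunit of the SAGA and ATAC complexes, acts mainly on H3K9. HDAC1 and HDAC2 are the zinc-dependent deacetylases of the Sin3, NuRD and CoREST complexes, HDAC3 is that of the NCoR and SMRT complexes, and SIRT6 and SIRT7 are NAD-dependent deacetylases with H3K18ac among their substrates. RNA levels say nothing of the activity of these enzymes or of the amount of acetyl-CoA.

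Libraries held 31672356 to 64814423 fragments. At the 8-cell stage the TMZ libraries correlated less with each other (Pearson's r across entries 0.937) than either did with a control library (0.943 to 0.9502), whereas the morula replicates had r of 0.976 (control) and 0.979 (TMZ). Fewer entries were above 0 in 8-cell TMZ library A (19466) than in the other 3 libraries of the table (21813 to 25336). Of the embryo markers (Pou5f1, Nanog, Krt8 and others), 0 of 10 tested passed the threshold described below at the 8-cell stage, beside 6.31% of all entries. In morulae, where 10.7% of all entries passed lower with TMZ, 5 of 9 of these markers did. Their summed level was 16191 to 20862 FPKM in 8-cell control libraries, 21447 to 26590 in 8-cell TMZ libraries, 18183 to 22319 in morula control libraries and 21497 to 26606 in morula TMZ libraries, most of it from Dppa3. Of the 14 embryo markers, 13 were named at the 8-cell stage and 9 in morulae, where Cdx2, Sox2 and Tead4 were not. No tested gene of the oocyte, cumulus or blood lists passed the threshold. Of 12 cumulus genes, 4 were named and 1 tested at the 8-cell stage, and 7 were named and 1 tested in morulae. Of 5 blood genes, 4 were named and 1 tested, then 2 named and 0 tested. Of 12 oocyte genes, all named, 8 and 5 were tested. All sums cover named genes only. The oocyte list summed to 64.1 and 65.9 FPKM in 8-cell control libraries, to 37.5 and 59.0 in the TMZ libraries, to 40.2 and 47.2 in morula control libraries and to 32.7 and 42.9 in TMZ morulae. The cumulus list summed to 16.7 to 28.1 FPKM, most of it from Nr5a2, which embryos also express, and Ptgs2 was at 0 in all 4 morula libraries. The blood list reached 6.55 FPKM at most. The part of these values in the results below was not tested.

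Levels are given as FPKM, fragments scaled to gene length and library total. That length joins all annotated exons of a gene, such as 3445 bases for Hdac1, 10163 for Acss2 and 13540 for Crebbp. Genes are compared with each other on this scale only. Effects of unused exons or of the full-length amplification on the order below were not tested. Hdac1 had the highest level of the 10 genes in all 8 libraries (103 to 149 FPKM), and Acss2 had the lowest (0.168 to 0.727 FPKM). Hdac2 (30.3 to 54.9 FPKM) lay above Sirt6 (19.5 to 34.5 FPKM), and Sirt6 above Sirt7 (9.46 to 18.4 FPKM), in each library. Crebbp (3.77 to 8.64 FPKM) and Acly (4.75 to 9.17 FPKM) changed places between libraries, as did Ep300 (0.658 to 2.02 FPKM) and Kat2a (0.671 to 3.33 FPKM). Hdac3 ranked from the second to the ninth place, with 1.30 to 94.7 FPKM. Hdac1 and Hdac2 stood above the acetyltransferases at the RNA level. Summed over Ep300, Crebbp and Kat2a, the acetyltransferases reached 7.37 to 13.7 FPKM, which was 4.15% to 9.17% of the sum of Hdac1 and Hdac2. This share was 7.69% and 7.45% in 8-cell control libraries and 5.02% (A) and 9.17% (B) in 8-cell TMZ libraries, so the groups overlapped. It was 4.68% and 4.15% in morula control libraries and 5.75% and 5.24% in TMZ morulae, where both TMZ libraries lay above both control libraries. The acetyltransferase sum itself overlapped in morulae, with 8.67 and 7.37 FPKM in control and 8.29 and 7.47 FPKM in TMZ libraries. The sum of Hdac1 and Hdac2 was lower with TMZ there, at 144 and 143 FPKM against 185 and 177 FPKM. These sums were formed after the values had been seen and were not tested.

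**Figure D1:**
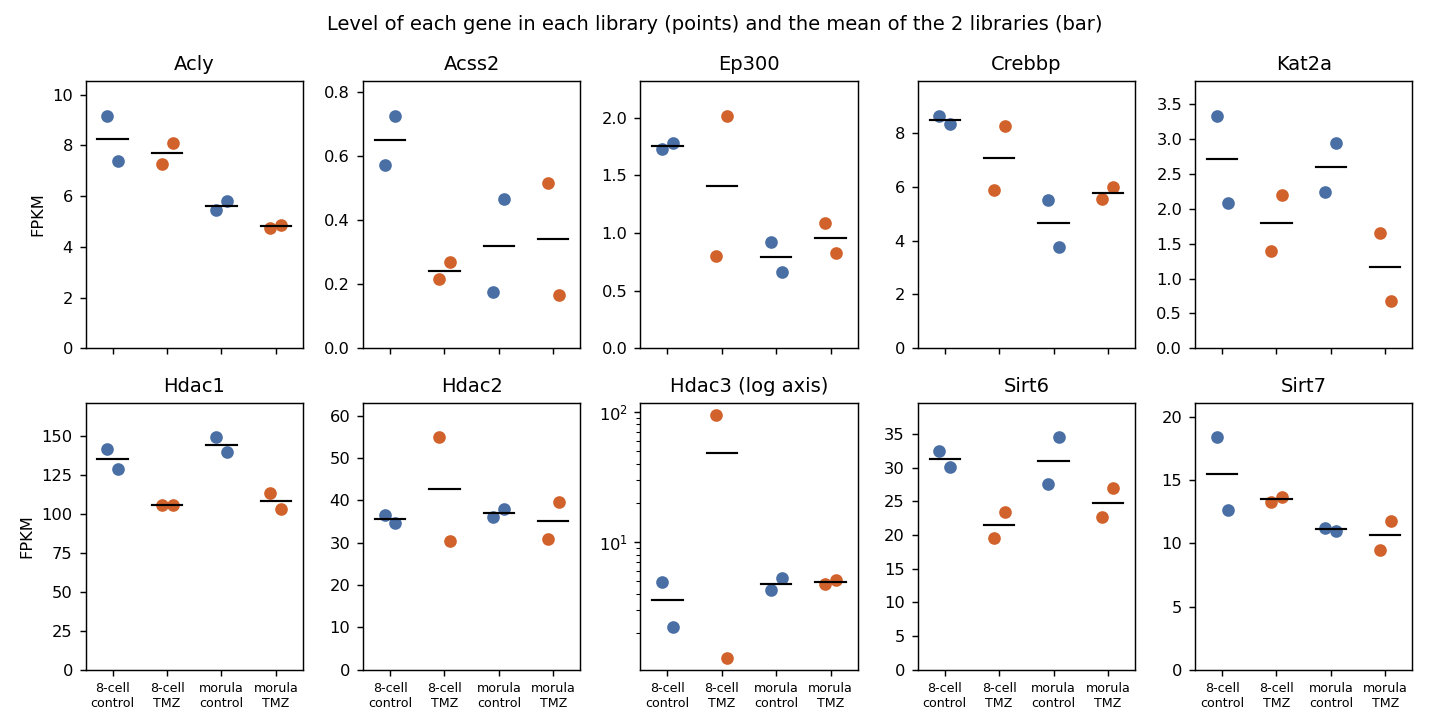
FPKM (y axis, from 0 except for Hdac3, which has a log axis) of each of the 10 genes in the 2 libraries (points) of each of the 4 groups (x axis), with the group mean as a bar. At each stage the TMZ points of Hdac1 and Sirt6 all lie under the control points, and Hdac3 stands at 94.7 FPKM in 8-cell TMZ library A alone.

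TMZ was compared with control within each stage by limma on log2(FPKM + 1), where fold changes of weakly expressed genes come out too small, over entries whose mean level was 1 FPKM or more. An entry was called at an unadjusted P under 0.05 with a log2 fold change beyond 0.5, and p-values adjusted by the Benjamini-Hochberg method over all entries tested are given beside it. Over all entries, 6.31% passed at the 8-cell stage (135 higher and 497 lower of 10021) and 17.9% at the morula stage (693 higher and 1040 lower of 9685). At an adjusted p-value under 0.05 limma called 0 entries at the 8-cell stage, where 632 had an unadjusted P under 0.05, and 3 in morulae. These numbers were not stable: 78 entries passed adjustment at the 8-cell stage without library A and 250 without library B, and 229 in morulae with the replicate number as a block. By direction these shares were 1.35% higher and 4.96% lower at the 8-cell stage, and 7.16% higher and 10.7% lower in morulae. Of the 10 genes, 9 could be tested in 8-cell embryos and 0 passed. In morulae 1 of 8 passed, Kat2a, which was lower with TMZ. Voom on the recovered fragment numbers likewise called 0 of 9 and 1 of 8. Acss2 at both stages and Ep300 in morulae fell under the filter on low values and are given by level only.

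Acly (chromosome 11, 100367165 to 100440756, GRCm39, minus strand) had 9.17 and 7.38 FPKM in 8-cell control libraries and 7.28 (A) and 8.08 (B) FPKM in 8-cell TMZ libraries. These groups overlapped, and the log2 fold change was -0.090 (SE 0.36, adjusted p = 0.9798, limma). In morulae the level was 5.45 and 5.80 FPKM in control and 4.75 and 4.86 FPKM in TMZ libraries. Both TMZ morulae lay below both control libraries, by 14.6% of the control mean, and the log2 fold change of -0.19 (SE 0.20) did not pass the test (adjusted p = 0.610, limma). The 4 morula libraries all lay below the 4 libraries of the 8-cell stage, a contrast between separately normalized tables that was not tested.

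Acss2 (chromosome 2, 155355679 to 155428016, plus strand) had 0.573 and 0.727 FPKM in 8-cell control libraries and 0.217 (A) and 0.269 (B) FPKM in 8-cell TMZ libraries, which do not overlap. The group means were 0.650 ± 0.109 and 0.243 ± 0.0364 FPKM (SD, n = 2), or 62.6% lower with TMZ. In morulae the control libraries had 0.176 and 0.466 FPKM and the TMZ libraries 0.516 and 0.168 FPKM, and the groups overlapped fully. Exons of Acss2os, Ggt7 and Gss on the opposite strand cover 9.12% of the exonic bases of Acss2, and the strand setting of the counting is not given in the sources used here. Without a filter on low values, Acss2 did not pass the threshold at either stage.

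Ep300 (chromosome 15, 81469540 to 81537206, plus strand) had 1.73 and 1.78 FPKM in 8-cell control libraries and 0.798 (A) and 2.02 (B) FPKM in 8-cell TMZ libraries. The TMZ libraries lay on either side of the controls, and the log2 fold change was -0.24 (SE 0.41, adjusted p = 0.926, limma). It was -0.62 without library B and 0.13 without library A, so the direction rested on 1 library. In morulae Ep300 had 0.918 and 0.658 FPKM in control and 1.09 and 0.825 FPKM in TMZ libraries, and the groups overlapped at a level under the filter.

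Crebbp (chromosome 16, 3899192 to 4031861, minus strand), the paralog of Ep300, was higher than Ep300 in every library, by 4.10 to 7.37 times. It had 8.64 and 8.32 FPKM in 8-cell control libraries and 5.88 (A) and 8.27 (B) FPKM in 8-cell TMZ libraries. Both TMZ values lay below both control values, B by less than the gap between the controls, and the log2 fold change was -0.25 (SE 0.37, adjusted p = 0.911, limma). It was -0.46 without library B, -0.032 without library A and 0.0092 with median-ratio scaling. That scaling sets the typical ratio of a library to the average library to be equal, over the entries above 0 in every library. In morulae Crebbp had 5.51 and 3.77 FPKM in control and 5.56 and 5.98 FPKM in TMZ libraries. Here both TMZ libraries lay above both control libraries, and the log2 fold change of 0.28 (SE 0.24) did not pass the test (adjusted p = 0.518, limma). Without control replicate 2 it was 0.055.

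Kat2a (chromosome 11, 100595572 to 100603310, minus strand) had 3.33 and 2.09 FPKM in 8-cell control libraries and 1.39 (A) and 2.20 (B) FPKM in 8-cell TMZ libraries. The groups overlapped, and the log2 fold change was -0.40 (SE 0.40, adjusted p = 0.861, limma). In morulae Kat2a had 2.24 and 2.95 FPKM in control libraries and 1.65 and 0.671 FPKM in TMZ libraries. Both TMZ libraries lay below both control libraries, and the means were 2.60 ± 0.496 and 1.16 ± 0.690 FPKM (SD, n = 2), or 55.3% lower with TMZ. The log2 fold change was -0.77 (SE 0.29, adjusted p = 0.227, limma), past the unadjusted threshold and not past adjustment. These values rest on few fragments, at least 129 and 172 in the control and 94 and 37 in the TMZ libraries. The length that goes with these numbers is 1740 bases, against 3480 bases recovered at the 8-cell stage. If the name holds, the true numbers are larger by the same factor, and voom was run on the smaller ones. Without a library the log2 fold change ran from -1.10 (TMZ replicate 1 left out) to -0.43 (TMZ replicate 2 left out), and the call was lost when TMZ replicate 2, control replicate 1 or control replicate 2 was left out. The name of this entry had a posterior of 0.9803 in the morula table, under the stricter bound of 0.99.

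**Figure D2:**
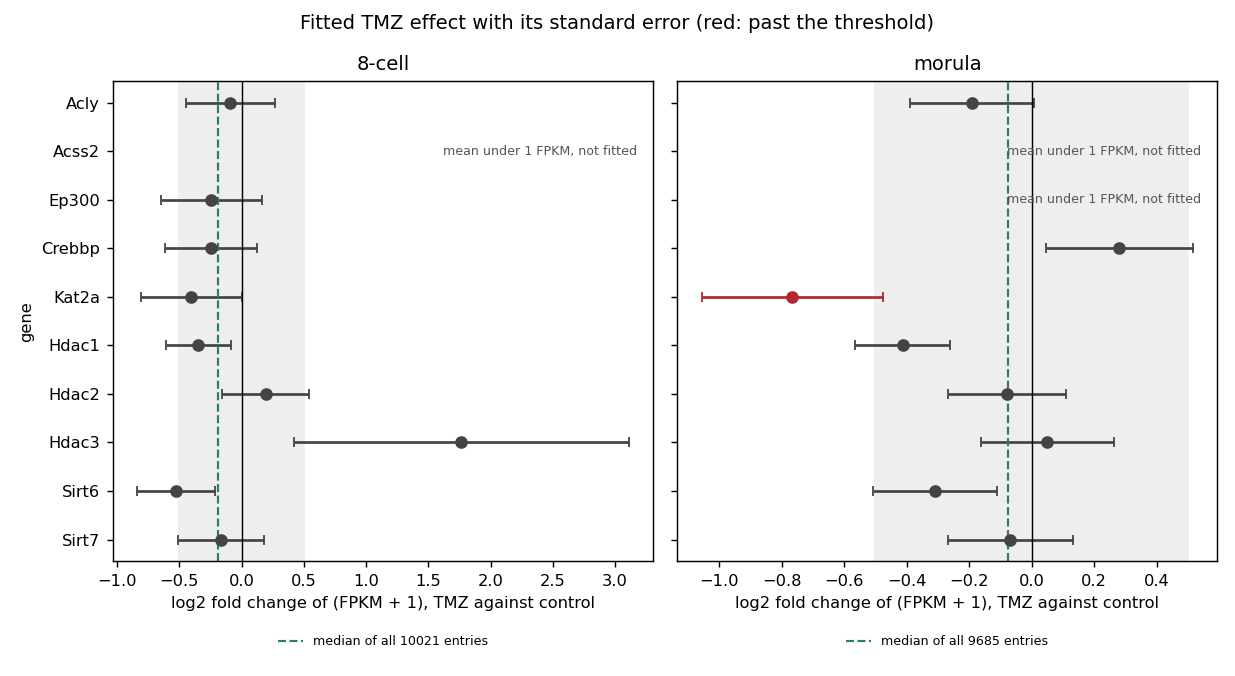
Log2 fold change of FPKM + 1 between TMZ and control (x axis) with its standard error, for each gene (y axis) at the 8-cell stage (left) and in morulae (right). The grey band spans 0.5 to either side of 0, and Kat2a in morulae, at -0.77, is the point past the threshold.

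Hdac1 (chromosome 4, 129409895 to 129436631, minus strand) had 142 and 129 FPKM in 8-cell control libraries and 106 FPKM in each 8-cell TMZ library. Both TMZ libraries lay below both control libraries, by 21.7% of the control mean, with a log2 fold change of -0.35 (SE 0.26, adjusted p = 0.819, limma). In morulae the level was 149.2 and 139.5 FPKM in control and 113 and 103 FPKM in TMZ libraries. The groups again did not overlap. The TMZ mean was 25.03% lower, and the log2 fold change of -0.41 (SE 0.15, adjusted p = 0.223, limma) had an unadjusted P under 0.05 and a size short of the threshold. After median-ratio scaling the log2 fold changes were -0.059 at the 8-cell stage, where the groups then overlapped, and -0.29 in morulae (adjusted p = 0.325). Hdac1 shares sequence with other places: 48.5% of the 31-base stretches in its exons are also found at another place of GRCm39, so fragments of near-identical copies may be split between entries. Of the stretches of the processed pseudogene Hdac1-ps (chromosome 17, 78799011 to 78800454) 78.6% do. That entry had 26.5 ± 1.09 FPKM in 8-cell control, 22.3 ± 2.25 in 8-cell TMZ, 35.9 ± 5.57 in morula control and 30.6 ± 3.26 in morula TMZ embryos (SD, n = 2).

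Hdac2 (chromosome 10, 36850435 to 36877890, plus strand) had 36.6 and 34.6 FPKM in 8-cell control libraries and 54.9 (A) and 30.3 (B) FPKM in 8-cell TMZ libraries, the first above and the second below the controls. Its log2 fold change was 0.19 (SE 0.35, adjusted p = 0.934, limma), and -0.23 without library A. In morulae it had 36.03 and 37.9 FPKM in control and 30.8 and 39.6 FPKM in TMZ libraries. The TMZ libraries again lay on either side of the controls, with a log2 fold change of -0.079 (SE 0.19, adjusted p = 0.834, limma).

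Hdac3 (chromosome 18, 38068897 to 38088077, minus strand) had 4.89 and 2.23 FPKM in 8-cell control libraries and 94.7 (A) and 1.30 (B) FPKM in 8-cell TMZ libraries. One TMZ library lay far above the controls and the other below them, and the log2 fold change of 1.76 (SE 1.34, adjusted p = 0.819, limma) came from library A. It was -0.93 without A and 4.46 without B. The level in library A was 19.4 times the highest of the other 3 libraries, from at least 16523 fragments. Entries that stood at least 10 times above the other 3 libraries of their table, at 10 FPKM or more, numbered 5 in library A, 7 in library B and at most 3 in any other library. The genes next to Hdac3, Rell2, Diaph1 and Fchsd1, were all under 1 FPKM in the 4 libraries. No 31-base stretch of Hdac3 occurs elsewhere in GRCm39. In morulae Hdac3 had 4.26 and 5.28 FPKM in control and 4.80 and 5.09 FPKM in TMZ libraries, the latter between the former, with a log2 fold change of 0.049 (SE 0.21, adjusted p = 0.912, limma).

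Because of library A, the sum of the class I deacetylases Hdac1, Hdac2 and Hdac3 was 256 FPKM in library A against 138 FPKM in library B, with 183 and 166 FPKM in the 8-cell control libraries. Hdac1 made up 77.3% and 77.8% of this sum in the controls, 41.4% in A and 77.02% in B. In morulae it made up 78.7% and 76.4% in control and 76.1% and 69.7% in TMZ libraries. Summed over Hdac1 and Hdac2 alone, the 8-cell libraries had 178 and 164 FPKM in control and 161 (A) and 136 (B) FPKM in TMZ embryos, and the morula libraries 185 and 177 FPKM in control and 144 and 143 FPKM in TMZ embryos. On this sum both TMZ libraries lay below both control libraries at each stage, library A by less than the gap between the 8-cell controls. With median-ratio scaling the 8-cell log2 fold changes were -0.059 for Hdac1 and 0.48 for Hdac2, and the sum was not formed on that scale.

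Sirt6 (chromosome 10, 81455262 to 81463631, minus strand) had 32.5 and 30.1 FPKM in 8-cell control libraries and 19.5 (A) and 23.5 (B) FPKM in 8-cell TMZ libraries. The groups did not overlap, and the means were 31.3 ± 1.70 and 21.5 ± 2.82 FPKM (SD, n = 2), or 31.3% lower with TMZ. The log2 fold change was -0.53 (SE 0.31, adjusted p = 0.790, limma). Sirt6 passed the unadjusted threshold when all 8 libraries shared an estimate of the spread (adjusted p = 0.382, limma). In that fit 12.8% of the 7507 genes tested passed at the 8-cell stage. In morulae Sirt6 had 27.6 and 34.5 FPKM in control and 22.7 and 26.9 FPKM in TMZ libraries. The TMZ libraries lay below the controls, the closest pair by less than the spread within a group, and the log2 fold change was -0.31 (SE 0.20, adjusted p = 0.401, limma). With median-ratio scaling these values were -0.25 at the 8-cell stage and -0.19 in morulae, where the groups then overlapped. Exons of Ankrd24 on the opposite strand cover 3.81% of the exonic bases of Sirt6.

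Sirt7 (chromosome 11, 120509197 to 120516066, minus strand) had 18.4 and 12.6 FPKM in 8-cell control libraries and 13.3 (A) and 13.7 (B) FPKM in 8-cell TMZ libraries. The TMZ libraries lay between the controls, with a log2 fold change of -0.16 (SE 0.35, adjusted p = 0.946, limma). In morulae Sirt7 had 11.2 and 11.02 FPKM in control and 9.46 and 11.8 FPKM in TMZ libraries, on either side of the controls, with a log2 fold change of -0.069 (SE 0.20, adjusted p = 0.865, limma). As for Acly, the 4 morula libraries lay below the 4 libraries of the 8-cell stage.

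**Figure D3:**
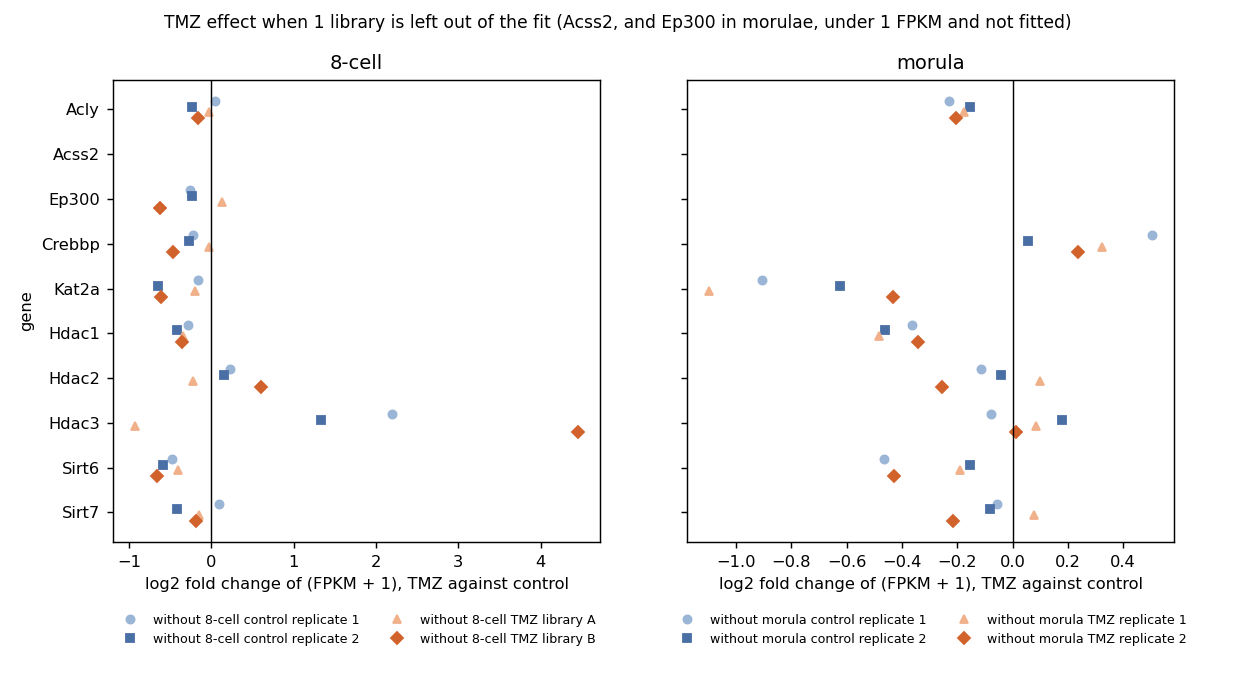
Log2 fold change of FPKM + 1 between TMZ and control (x axis) for each gene (y axis) when 1 of the 4 libraries of a stage is left out, with a symbol for each library left out. At the 8-cell stage Hdac3 runs from -0.93 to 4.46, Hdac1 from -0.41 to -0.28 and Sirt6 from -0.65 to -0.40, and in morulae Kat2a runs from -1.10 to -0.43.

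The median log2 fold change of the genes tested was -0.24 at the 8-cell stage, with 7 of 9 below 0, beside a median of -0.19 over all entries. In morulae it was -0.13, with 6 of 8 below 0, beside -0.076 over all entries. Median-ratio scaling moved the median of all entries by 0.23 at the 8-cell stage and by 0.10 in morulae, and the medians of the genes tested became 0.0092 and -0.019. Relative to the median of all entries they then lay at -0.037 and -0.046, against -0.055 and -0.059 on the deposited scale. The same scaling changed the split of all called entries from 135 higher and 497 lower to 292 and 255 at the 8-cell stage, and from 693 and 1040 to 1022 and 687 in morulae. At the 8-cell stage groups did not overlap for 3 of the 9 genes, Crebbp, Hdac1 and Sirt6, all lower with TMZ, beside 37.7% of all entries (29.6% lower and 8.09% higher). With median-ratio scaling Sirt6 stayed lower, Crebbp and Hdac1 overlapped, and Acly was higher with TMZ. In morulae they did not overlap for 5 of 8, with Acly, Kat2a, Hdac1 and Sirt6 lower and Crebbp higher, beside 55.6% of all entries (33.3% lower and 22.3% higher). With median-ratio scaling Sirt6 overlapped and Hdac3 was higher with TMZ, and the other 4 kept their direction. The shares of all entries given here are from the deposited scale. They were not computed after scaling, so the scaled results of either stage have no share beside them.

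Whether the TMZ effect differed between the stages was tested over all 8 libraries and the 7507 genes named at both stages whose mean level was 1 FPKM or more, of which 8.39% had an unadjusted P under 0.05. Of the 9 genes of the set that were tested, 0 did (limma), nor did any with a pseudocount of 0.1, median-ratio scaling or voom, and 0 of the 7507 genes had an adjusted p-value under 0.05 in these fits. Kat2a, called in morulae alone, had a difference of -0.36 (morula minus 8-cell, log2, SE 0.48, adjusted p = 0.932). For Hdac3 the difference was -1.72 (SE 1.83, adjusted p = 0.915). Without library B it was -4.41 (adjusted p = 0.0130), and without library A it was 0.97 (adjusted p = 0.423), so its sign followed a single library. Of the 7507 genes, 169 had an adjusted p-value under 0.05 and 15.5% an unadjusted P under 0.05 without library B, and 11 and 13.7% without library A. These 2 fits were added after the data had been seen.

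The other genes of the pathway were taken from 6 lists with 117 genes: acetyl-CoA supply, other acetyltransferases, SAGA and ATAC partners of KAT2A, other deacetylases, complex partners of HDAC1, HDAC2 and HDAC3, and bromodomain proteins, which read acetylated lysines. At the 8-cell stage 100 were named and 73 tested, of which 0 passed the threshold higher and 1 lower (1.37%, against 6.31% of all entries), with a median log2 fold change of -0.15 beside -0.19 over all entries. That gene was Zmynd8, a bromodomain reader, with 3.595 and 19.02 FPKM in control and 1.72 (A) and 3.18 (B) FPKM in TMZ libraries (log2 fold change -1.51, SE 0.64, adjusted p = 0.771, limma). At the stricter posterior bound of 0.99 on names 0 of 16 bromodomain genes tested were called, so the name Zmynd8 did not reach it. Its control libraries differed from each other more than the lower of them did from the TMZ libraries, and the call was lost without control replicate 2, without library A, with no filter on expression, at a mean of 5 FPKM or more and with median-ratio scaling. Of the 73 genes, 1 was higher and 3 lower without library A (5.48%, against 9.97% of all entries), and 2 higher and 4 lower without library B (8.22%, against 18.3%). In morulae 95 were named and 66 tested, of which 2 passed higher and 8 lower (15.2%, against 17.9% of all entries), with a median of -0.16 beside -0.076. With median-ratio scaling these counts were 4 higher and 2 lower. They were 2 and 4 without TMZ replicate 1, 0 and 2 without TMZ replicate 2, and 2 and 2 without control replicate 2. Voom gave 2 higher and 20 lower (33.3%, against 19.8% of all entries), so the share of the lists lay below that of all entries on the main scale and above it with voom.

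Acetyl-CoA supply had 0 called genes of 10 tested at the 8-cell stage and 0 of 8 in morulae (medians -0.30 and -0.018), and the other acetyltransferases 0 of 9 at each stage (medians -0.12 and -0.47). With voom 4 of these 9 acetyltransferases passed lower in morulae, 44.4% against 19.8% of all entries. Other deacetylases were mostly under the filter, with 0 called of 3 and of 2 tested. Of the SAGA and ATAC partners 0 of 12 were called at the 8-cell stage, beside 6.31% of all entries. Yeats2 was not named at that stage and was not among these 12. In morulae 2 were higher and 1 lower of 12 (25.0%, beside 17.9% of all entries). Sgf29, a SAGA subunit that binds methylated H3K4, rose in TMZ morulae, from 59.9 and 59.4 FPKM to 84.6 and 94.7 FPKM (log2 fold change 0.58, SE 0.16, adjusted p = 0.174). Yeats2, an ATAC subunit, rose from 0.483 and 2.02 to 3.26 and 3.25 FPKM (log2 fold change 1.01, SE 0.35, adjusted p = 0.213), and Taf6l, a SAGA subunit, fell from 2.82 and 3.33 to 2.07 and 1.36 FPKM (log2 fold change -0.60, SE 0.24, adjusted p = 0.242). The call of Taf6l was lost with median-ratio scaling (adjusted p = 0.277, limma), and those of Sgf29 and Yeats2 were kept. Mbip, an ATAC subunit named here after its value was seen, then passed higher (0.57). This made 3 higher and 0 lower of 12 (25.0%, beside 17.6% of all entries).

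Complex partners of the class I deacetylases had 0 called genes of 20 tested at the 8-cell stage (median -0.16). Mta3 and Kdm1a were not named at that stage and were not among these 20. In morulae 0 rose and 4 fell of 18 (median -0.26): the NuRD subunits Mta2, Mta3 and Mbd3, and Kdm1a, the H3K4 demethylase of the CoREST complex. This was 22.2% of the list, beside 17.9% of all entries (10.7% lower). Voom called 0 higher and 7 lower of 18 in morulae (38.9%, beside 19.8% of all entries). The fit of all 8 libraries took only genes named at both stages, so Mta3 and Kdm1a were not in it. In that fit 0 of 16 passed in morulae, beside 9.62% of all its genes. Mta3 fell from 49.5 and 48.3 FPKM to 29.7 and 33.2 FPKM (log2 fold change -0.62, SE 0.17, adjusted p = 0.170), and Mta2 from 9.08 and 10.99 to 6.88 and 3.90 FPKM (log2 fold change -0.82, SE 0.28, adjusted p = 0.209). Mbd3 (13.4 and 16.4 against 9.89 and 9.80 FPKM) and Kdm1a (3.34 and 3.55 against 2.14 and 1.91 FPKM) had log2 fold changes of -0.54 and -0.56. With median-ratio scaling Mta2 kept its call, and Mta3 (-0.50), Mbd3 (-0.42) and Kdm1a (-0.46) fell short of it. Rbbp7, a histone-binding partner named here after its value was seen, then passed higher (0.55). This made 1 higher and 1 lower of 18 (11.1%, beside 17.6% of all entries).

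Bromodomain proteins had 0 higher and 1 lower of 19 tested at the 8-cell stage, and 0 higher and 3 lower of 17 in morulae (median -0.012). These were 5.26% of the list against 6.31% of all entries at the 8-cell stage, and 17.6% against 17.9% in morulae. Baz2a, the large subunit of the nucleolar remodelling complex NoRC, fell from 5.42 and 5.23 FPKM to 2.63 and 1.79 FPKM (log2 fold change -0.99, SE 0.23, adjusted p = 0.167), also with median-ratio scaling. Brd2, a BET reader of acetylated histones, fell from 7.45 and 8.12 to 4.87 and 4.91 FPKM (log2 fold change -0.58, SE 0.20, adjusted p = 0.210), and Trim28, a corepressor of zinc finger proteins, from 31.5 and 38.2 to 24.1 and 23.1 FPKM (log2 fold change -0.54, SE 0.18, adjusted p = 0.209). Brd2 and Trim28 did not pass with median-ratio scaling (log2 fold changes -0.46 and -0.41). Of the embryo markers, 5 of 9 also passed lower in TMZ morulae, beside 10.7% of all entries, while the summed level of the markers overlapped between the groups. A link between the markers and the morula calls of these lists was not tested.

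**Figure D4:**
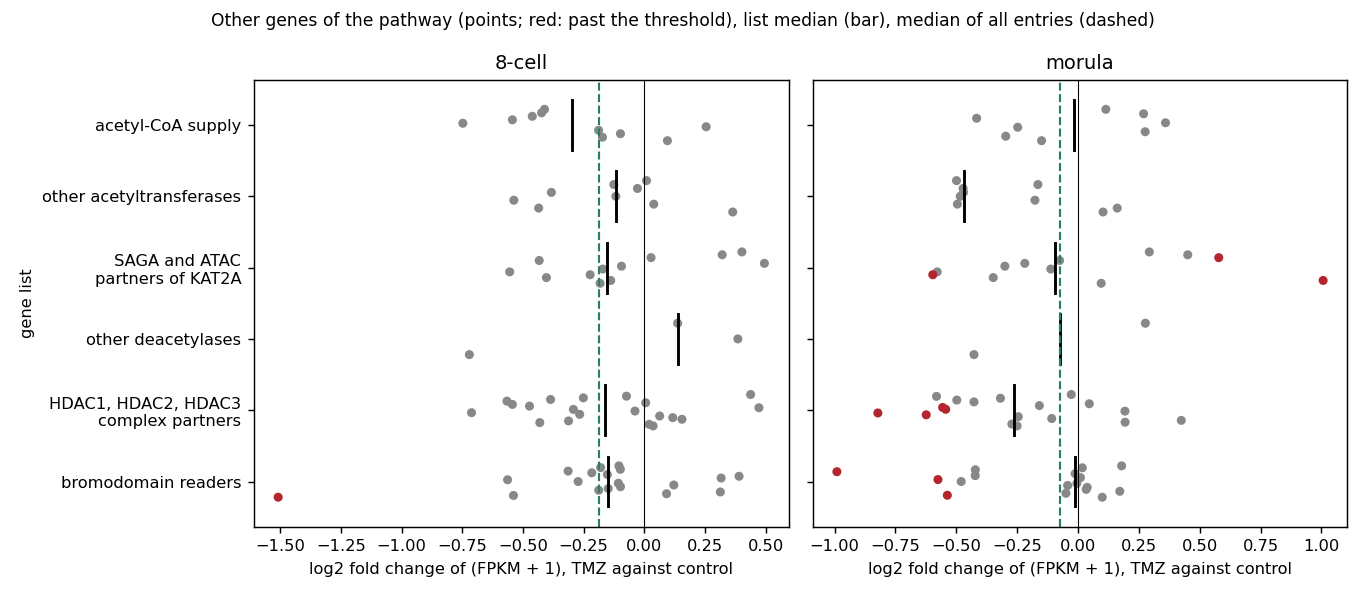
Log2 fold change of FPKM + 1 between TMZ and control (x axis) of each tested gene (points) in the 6 pathway lists (y axis) at the 8-cell stage (left) and in morulae (right), with the median of each list as a bar and that of all entries as a dashed line. The 1 gene called at the 8-cell stage and the 10 called in morulae are red.

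Profiles over the 8 libraries, centred within each stage, were compared with those of 6873 genes named in both tables by the root mean square difference in log2(FPKM + 1). Cdca5 (0.046), Rbm39 (0.049) and Tpx2 (0.054) were the nearest to Acly, where the median gene lay at 0.28. Slc22a13b (0.051), Bmpr1a (0.069) and Clk1 (0.069) were the nearest to Ep300, where the median gene lay at 0.33. The points share libraries and their depth.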

How the data were processed

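The authors trimmed reads with fastp 0.23.4, aligned them to GRCm39 with STAR 2.7.9a, counted fragments with featureCounts 2.0.6, as the submitters' processing notes list, and deposited FPKM per gene in a table per stage. They tested raw counts with DESeq2, which the deposited unit does not allow to repeat. Annotation release and strand setting are not given in the sources used here. Labels give 2 libraries per group, a figure legend calls them biologically independent, and the methods text gives a larger number.

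The deposited FPKM values were solved for library totals and, up to a whole factor, gene lengths, which rebuilt 100% of the values within 1e-10, so fragment numbers are the smallest the values allow. Entries were named by a pair hidden Markov model that aligned these lengths to GENCODE vM39 exonic lengths in Ensembl order, each table by itself, at a posterior of at least 0.95. Of the entries tested, 8375 of 10021 and 7539 of 9685 were named. With decoy genes inserted the scaled share given to decoys was 0.743% and 0.548%, and of the entries of genes taken out of the annotation, 26 of 156 and 13 of 146 went to another gene. In all, 3 versions of the model were run, with the levels and posteriors of the 10 genes in view and before any fold change had been computed. The entries named Gapdh and Tuba1b had low values for genes of their kind, which leaves a doubt on names.

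Limma 3.58.1 (R 4.3.3) was fitted on log2(FPKM + 1) with trend, per table, over entries whose mean level was 1 FPKM or more, with no covariate. Fits and recovery were tested on simulated data. Replicate numbers were treated as names only in the main fit. The deviations of morula replicate 1 correlated at 0.076 across entries, which does not settle whether the numbers mark pairs. With them as a block 229 morula entries passed adjustment, against 3 without. The genes named in the text are the 10 genes, list genes that passed and had separate groups (at most 4 per list, stage and direction), and the 3 nearest profiles to Acly and Ep300. The 10 genes and the lists were chosen with earlier results of these data known. The summed levels, the rule on single libraries far above the rest, the neighbours of Hdac3 and Hdac1-ps were added after the data had been seen.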

Additional observations from a re-analysis of the deposited data

Results flagged for a closer look

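Crebbp had both TMZ libraries below both control libraries at the 8-cell stage and above both in morulae, and neither comparison passed the test (adjusted p = 0.911 and 0.518, limma). With median-ratio scaling the 8-cell groups overlapped (log2 fold change 0.0092), and without library A the 8-cell value was -0.032. The difference of its TMZ effects, morula minus 8-cell, was 0.53 on the log2 scale (SE 0.40, adjusted p = 0.861, limma), so the test of the difference itself did not pass. No gene was flagged here by a rule on single outlying samples within a group, since the groups hold 2 libraries each. Entries with 1 library at least 10 times above the rest of their table were only counted, as given for Hdac3.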

How the results depend on the processing

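The 8-cell count of entries past the threshold (632) was 281 at a mean of at least 5 FPKM, 961 in a fit of all 8 libraries, 999 without TMZ library A, 1837 without library B and 276 to 286 without a control replicate. The morula count (1733) was 1058 at a mean of at least 5 FPKM, 722 in the fit of all 8 libraries, and from 786 to 1869 without a library. At the 8-cell stage 1 of the 10 genes, against 0, passed without library B (Hdac3) and in the fit of all 8 libraries (Sirt6), with 0 to 1 over all libraries left out. In morulae 0, against 1, passed with no filter on expression, at a mean of at least 5 FPKM and at a posterior of 0.99 (the last 2 leave Kat2a out), with 0 to 1 when a library was left out. The median of the genes tested was 0.0092 (8-cell) and -0.019 (morula) with median-ratio scaling, -0.35 without library B, -0.35 to -0.16 (8-cell) and -0.23 to -0.050 (morula) without a library. The genes whose effect differed between the stages numbered 1 without library B (Hdac3, in a fit where 169 of 7507 genes passed adjustment), against 0. Directions turned, none of them called, for Acly (0.17), Crebbp (0.0092) and Sirt7 (0.11) at the 8-cell stage and Hdac2 (0.046) and Sirt7 (0.049) in morulae with median-ratio scaling. They also turned for Acly (0.050, with a lowest value of -0.23) and Sirt7 (0.090, with a lowest value of -0.42) without 8-cell control replicates, for Ep300 (0.13), Hdac2 (-0.23) and Hdac3 (-0.93) without library A, and in morulae for Hdac2 (-0.26 to 0.098), Hdac3 (-0.079 to 0.18) and Sirt7 (-0.21 to 0.077) over the libraries left out. The cause of these changes was not tested. With the replicate number as a block in the morula fit, Kat2a kept its call (log2 fold change -0.77), 1 of the 8 genes passed and 1989 entries passed. No block could be fitted at the 8-cell stage, where the TMZ columns carry no numbers. The genes of the lists past the threshold numbered 10 in the block fit and 22 with voom in morulae (2 higher and 20 lower, 33.3% against 19.8% of all entries), and these alternatives for the lists were chosen after seeing the data. A lone library left in a group was assumed to vary like the others.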
